A study of Mus musculus with 2 samples.

Results

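Serine, glycine and proline synthesis was followed through 9 genes of the 32285 counted in embryonic mouse cerebella: Phgdh, Psat1 and Psph of serine synthesis, Shmt2 and Mthfd2 of the mitochondrial one-carbon pathway, Aldh18a1 and Pycr1 of proline synthesis, and the stress readouts Atf4 and Asns. They were chosen from their UMI counts in mutant cells with at least 2 UMIs of Wif1, a secreted Wnt inhibitor and Wnt target gene, and in control glia-like cells, so the values of those 2 populations describe the choice and are no independent finding. The mutant library came from embryos with Blbp-cre, Ctnnb1(ex3)fl/wt and Smarca4fl/fl, in which a Cre driven by the Blbp promoter, active in neural and glial progenitors, deletes exon 3 of 1 Ctnnb1 allele and the floxed part of both Smarca4 alleles. The control library came from cre-negative embryos, whose other alleles the labels do not state. All cerebella were taken at E16.5 and dissociated whole, and 3 samples of each genotype were pooled into 1 library, so there was no replicate, no test was possible, and every interval below covers counting error of UMIs or cells only.

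Serine is made from the glycolytic intermediate 3-phosphoglycerate by the dehydrogenase Phgdh, the aminotransferase Psat1 and the phosphatase Psph. In mitochondria Shmt2 converts serine to glycine and passes 1 carbon to tetrahydrofolate, which Mthfd2 oxidizes. Proline is made from glutamate by the synthase Aldh18a1 and, at the last step, the reductase Pycr1. Atf4 is a transcription factor translated more when amino acids run short or the endoplasmic reticulum is stressed, and it is known to activate most of these enzyme genes together with Asns, the asparagine synthetase. In the brain, serine synthesis is known as a property of astroglia, which supply neurons with serine.

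The promoter windows of Pycr1 and Asns are shown because they alone, of the 10 windows that RefSeq gives for the 9 genes, held the composite element through which Atf4 is known to bind. The windows run from 250 bases before to 50 bases after the annotated start (RefSeq, GRCm38.p6). The element was searched as TGATGNAA on both strands. It is in capitals below, at base −103 from the start in Pycr1 and at base −23 in Asns.

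Pycr1, chr11:120643699-120643998, minus strand: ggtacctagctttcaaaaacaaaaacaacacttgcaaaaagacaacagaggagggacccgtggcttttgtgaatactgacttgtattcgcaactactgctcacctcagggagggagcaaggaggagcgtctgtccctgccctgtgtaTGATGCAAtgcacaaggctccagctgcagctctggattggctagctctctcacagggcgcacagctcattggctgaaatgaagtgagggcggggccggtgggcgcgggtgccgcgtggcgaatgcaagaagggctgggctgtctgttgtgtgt

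Asns, chr6:7693160-7693459, minus strand: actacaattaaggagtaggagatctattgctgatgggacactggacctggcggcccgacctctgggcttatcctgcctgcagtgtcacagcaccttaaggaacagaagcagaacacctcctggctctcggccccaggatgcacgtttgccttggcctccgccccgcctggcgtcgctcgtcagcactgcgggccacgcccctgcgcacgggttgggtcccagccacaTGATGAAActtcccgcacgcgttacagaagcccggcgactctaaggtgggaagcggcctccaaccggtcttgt

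Of 32851 promoter windows, 3.97% held the same element. An E-box, CACGTG, was found in the Aldh18a1 window and in 7.15% of all windows, and CTTTGA, the core bound by TCF/LEF factors of the Wnt pathway, in the Atf4 window and in 16.0% of all windows. A match is a description of the letters only. Pycr1 lies on chromosome 11 (120635712 to 120643769, minus strand, GRCm38), Psat1 on chromosome 19 (15904678 to 15947337, minus strand) and Phgdh on chromosome 3 (98313170 to 98339990, minus strand). Phgdh has 6 processed copies elsewhere in the genome that match at least 95% of the bases aligned over its last 500, and how reads shared with them were assigned is not given, so its level is uncertain to that extent.

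After filtering, 15864 mutant and 15969 control cells remained, at median depths of 9714 and 10016 UMIs, and 64 cell barcodes occurred in both libraries. Smarca4 stood at 49.5 CPM (UMIs per 1000000 UMIs of the population) in all mutant cells, against 68.2 CPM in all control cells. Wif1-high mutant cells did not have that order against control glia-like cells, with 49.3 CPM in the former and 40.2 CPM (37.4 to 43.3) in the latter. Mutant glia-like cells, at 38.6 CPM (35.0 to 42.5), were slightly below control glia-like cells, with overlapping intervals. Which exons are floxed is not given in the labels, and a 3′ tag outside the deleted part does not show the deletion. The same holds for exon 3 of Ctnnb1, which stood at 237 CPM in Wif1-high mutant cells, against 164 CPM in control glia-like cells. Wif1-high cells numbered 4825 (30.4% of mutant cells), against 68 (0.426%) of control cells. Of the mutant ones, 92.9% lay in 10 clusters that took up at least 5 times as large a share of mutant as of control cells. Glia-like cells, 872 mutant and 1498 control, were 4 clusters named from 12 astroglial progenitor markers. These markers summed to 2750 CPM in Wif1-high mutant cells and 26720 CPM in control glia-like cells, and only 45 of the Wif1-high cells (0.933%) fell in glia-like clusters. The comparison of those populations therefore sets different kinds of cells side by side.

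The first and last enzymes of serine synthesis were low in Wif1-high mutant cells relative to control glia, and the middle one was not, although it stayed below the glia-like cells of the mutant library itself. Phgdh stood at 35.8 CPM in Wif1-high mutant cells, 425 CPM in mutant glia-like cells, 475 CPM in control glia-like cells and 85.8 CPM in the other control cells. The ratio of Wif1-high mutant to control glia-like cells was 0.0755 (95% interval 0.0720 to 0.0792). After each cell was thinned to 3000 UMIs, 6.61% of Wif1-high mutant cells, 63.7% of mutant glia-like cells and 72.4% of control glia-like cells held a Phgdh UMI (19.2%, 89.2% and 89.8% unthinned). Erythroid-like cells, taken as a background, held one in 1.43% of mutant and 1.62% of control cells after thinning. Of 36 mutant clusters theirs had the lowest Phgdh level (4.01 CPM), so this is a low background.

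Psph was also low outside glia: it stood at 31.5 CPM in Wif1-high mutant cells, 207 CPM in mutant glia-like cells, 156 CPM in control glia-like cells and 26.9 CPM in other control cells, with a ratio of 0.202 (0.191 to 0.215) between the first and the control glia-like cells. Of these populations Phgdh and Psph were thus highest in the glia-like cells of each library. Among single clusters Phgdh was highest in the control cells of cluster 17, led by Rspo1 and Nppc and left unnamed although 10 astroglial progenitor markers were enriched in it, with 272 CPM in its mutant and 645 CPM in its control cells. Wif1-high mutant cells had less Phgdh than the other control cells and about as much Psph. The other control cells include the 482 of cluster 17 and the 345 of cluster 22, which was unnamed too, with 9 astroglial progenitor markers enriched. Over 34 control clusters the median level was 54.3 CPM of Phgdh and 21.8 CPM of Psph. Psph overlaps an annotated transcript of Cct6a on the opposite strand, and whether the counting used strand is not given.

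Psat1 stood at 133 CPM in Wif1-high mutant cells, 204 CPM in mutant glia-like cells, 89.5 CPM in control glia-like cells and 39.6 CPM in other control cells. Its ratio of Wif1-high mutant to control glia-like cells was 1.49 (1.41 to 1.57), just under the 1.5-fold that counted as a call. A Psat1 UMI was held by 21.1% of thinned Wif1-high mutant cells, 41.1% of mutant glia-like cells and 23.1% of control glia-like cells (40.2%, 72.9% and 54.7% unthinned), against 2.0% of mutant and 0.405% of control erythroid-like cells. In CPM, mutant erythroid-like cells had 8.01 of Psat1, the lowest of 36 mutant clusters. Other non-neural mutant cells had 10.4 (meningeal fibroblast-like), 20.1 (endothelial-like), 44.1 (microglia- or macrophage-like) and 58.0 (pericyte- or mural-like). Summed over the Wif1-high mutant cells, Psat1 thus lay above control glia-like cells but below mutant glia-like cells, whereas Phgdh and Psph lay below both.

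**Figure D1:**
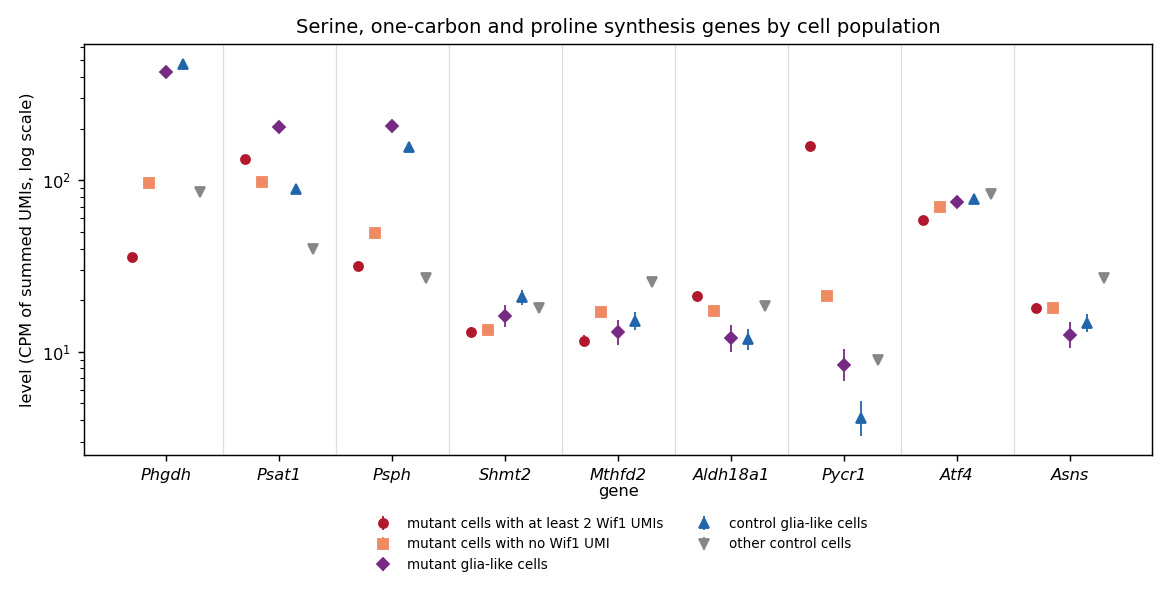
Level of each gene (CPM, log scale) in 5 cell populations, with exact 95% Poisson intervals where wider than the symbol. Phgdh and Psph are highest in the glia-like cells of either library, Psat1 is highest in mutant glia-like cells (204 CPM), and Pycr1 in Wif1-high mutant cells (159 CPM).

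The one-carbon enzymes were low in every population and differed less. Shmt2 stood at 13.1 CPM in Wif1-high mutant cells, 16.3 CPM in mutant glia-like cells and 20.9 CPM in control glia-like cells, a ratio of 0.626 (0.553 to 0.710) between Wif1-high mutant and control glia-like cells. Shmt2 shares its last bases with Ndufa4l2 on the opposite strand. Mthfd2 stood at 11.6 CPM in Wif1-high mutant cells, 13.0 CPM in mutant glia-like cells, 15.2 CPM in control glia-like cells and 25.6 CPM in other control cells, with a ratio of 0.767 (0.666 to 0.885) over control glia-like cells. Of these 2 genes only Shmt2 passed 1.5-fold, and in 9 of 20 alternative settings it did not (0.394 to 0.867 over all 20).

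Both proline synthesis genes followed here, Pycr1 and Aldh18a1, were higher in Wif1-high mutant cells than in control glia, Pycr1 by far the more. The wider list of 7 proline genes had a median log2 ratio of −0.47, against 0.11 over all genes compared. Pycr1 had 9700 UMIs in the 4825 Wif1-high mutant cells, 91 UMIs in the 872 mutant glia-like cells and 74 UMIs in the 1498 control glia-like cells. This came to 159 CPM in Wif1-high mutant cells, 8.42 CPM in mutant glia-like cells, 4.10 CPM in control glia-like cells and 8.92 CPM in other control cells. The ratio of Wif1-high mutant to control glia-like cells was 38.7 (30.8 to 49.4), and it lay between 19.4 and 90.7 over 20 alternative settings.

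A Pycr1 UMI was held by 19.8% of thinned Wif1-high mutant cells, 1.69% of mutant glia-like cells and 0.729% of control glia-like cells (33.2%, 6.31% and 4.07% unthinned). Erythroid-like cells held one in 1.43% of mutant and 0.405% of control cells, at median depths of 17124 and 18641 UMIs before thinning. In CPM, erythroid-like cells had 3.01 in the mutant library (18 UMIs) and 0.220 in the control library (1 UMI), below the glia-like cells of the same library in both cases. Other non-neural mutant cells lay on both sides of the 8.42 CPM of mutant glia-like cells. Endothelial-like cells had 13.7 CPM, meningeal fibroblast-like 16.8, pericyte- or mural-like 5.70 and microglia- or macrophage-like 5.61. Whether Pycr1 in mutant glia-like cells exceeds such a background was not tested. Aldh18a1, the first enzyme of the same pathway, stood at 21.0 CPM in Wif1-high mutant cells, 12 CPM in mutant glia-like cells and 11.8 CPM in control glia-like cells. Its ratio of Wif1-high mutant to control glia-like cells was 1.78 (1.54 to 2.06), but other control cells had 18.6 CPM, close to the Wif1-high cells.

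Neither stress readout passed 1.5-fold between Wif1-high mutant and control glia-like cells. Atf4 stood at 58.5 CPM in Wif1-high mutant cells, 74.8 CPM in mutant glia-like cells, 77.8 CPM in control glia-like cells and 83.7 CPM in other control cells, with a ratio of 0.751 (0.706 to 0.80) between Wif1-high mutant and control glia-like cells. Atf4 is controlled mostly at translation, which UMI counts do not measure. Asns stood at 18.0 CPM in Wif1-high mutant cells, 12.6 CPM in mutant glia-like cells, 14.7 CPM in control glia-like cells and 27.0 CPM in other control cells. Its ratio of 1.23 (1.07 to 1.41) over control glia-like cells passed no threshold and took both directions with the glia chosen: it was 2.58 over control cells of glia-like cluster 10 alone, in which Asns stood at 6.99 CPM, and 0.620 over those of glia-like cluster 27 alone.

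In all, 2 of the 9 genes were at least 1.5-fold higher in Wif1-high mutant than in control glia-like cells (Pycr1 and Aldh18a1) and 3 were as much lower (Phgdh, Psph and Shmt2), where 22.8% of 10078 genes at 10 CPM or more were higher and 19.8% lower. Nothing is read from these counts, because the genes were chosen on this contrast. The median log2 ratio of the 9 was −0.38, against 0.11 over all genes compared.

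Wif1-high cells were also set against mutant cells of the same library with no Wif1 UMI. This comparison shares the Wif1-high cells with the one above and is no independent support. Pycr1 had the highest ratio of the 9 genes. It had 159 CPM in Wif1-high cells and 21.1 CPM in mutant cells without Wif1, a ratio of 7.52 (7.16 to 7.89). It was the 1 gene of 9 that was at least 1.5-fold higher, where 7.92% of 9841 genes were, and Phgdh and Psph were the 2 that were lower, where 10.3% were. Mthfd2, at a ratio of 0.683, was lower by 1.5-fold or more in 7 of 13 alternative settings (0.605 to 0.725). The cells without Wif1 include 737 of the 872 mutant glia-like cells, and the 12 astroglial progenitor markers summed to 2750 CPM in Wif1-high cells and 5504 CPM in cells without Wif1. The part of these glia in the lower Phgdh and Psph was not tested. Phgdh stood at 35.8 CPM in Wif1-high cells and 96.2 CPM in cells without Wif1 (ratio 0.373, 0.355 to 0.390), and Psph at 31.5 and 49.4 CPM in the same order (0.637, 0.604 to 0.672). Asns had 18.0 CPM in both populations, and its ratio was 1.0 (0.929 to 1.08). Psat1 had 133 CPM in Wif1-high cells and 98.2 CPM in cells without Wif1, a ratio of 1.35 (1.31 to 1.39).

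At the threshold that defines Wif1-high cells, mutant cells with 2 Wif1 UMIs had 78.6 CPM of Pycr1 and those with 1 had 51.0 CPM, while Phgdh stood at 42.5 CPM with 2 and 76.8 CPM with 1. To set depth aside, mutant cells were also binned by their Wif1 UMIs after thinning to 3000 UMIs, and levels were taken from all their UMIs. Pycr1 stood at 32.6 CPM with 0 Wif1 UMIs, 95.3 with 1, 161 with 2, 169.9 with 3 to 4 and 283 with 5 or more. Phgdh went the other way, with 89.5, 49.0, 32.4, 37.2 and 29.0 CPM over the same bins. Psat1 showed no such order: 103 CPM with 0, 136 with 1, 130.3 with 2, 149.5 with 3 to 4 and 124 with 5 or more. Atf4 ranged from 59.2 to 67.9 CPM and Asns from 17.3 to 18.6 CPM over the 5 bins.

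**Figure D2:**
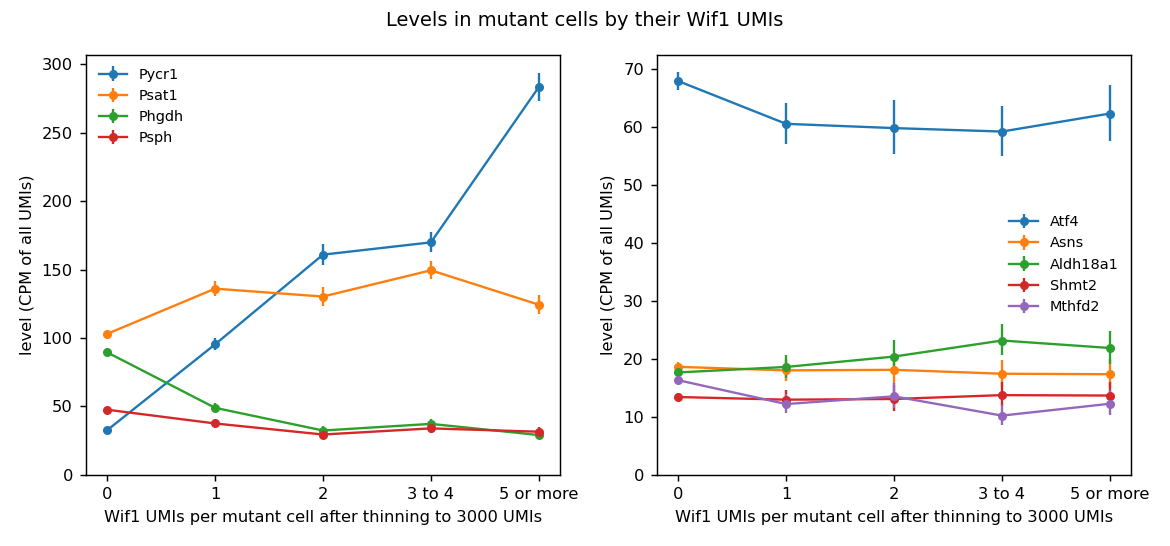
Level of the 9 genes (CPM, linear axis, exact 95% Poisson intervals) in mutant cells grouped by Wif1 UMIs after thinning to 3000 UMIs per cell. Pycr1 is higher in each further bin, from 32.6 CPM with 0 Wif1 UMIs to 283 CPM with 5 or more, Phgdh is highest with 0, and Atf4, Asns and Shmt2 stay within narrow ranges.

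Wif1-high cells were not uniform, and Pycr1 and Psat1 peaked in different clusters. These clusters were built without the 9 genes and without Wif1. Pycr1 was highest in mutant cluster 11, led by the R-spondin receptor gene Lgr6 and including the Wnt feedback gene Notum among its 10 leading genes, at 439 CPM, where Psat1 stood at 96.5 CPM and Wif1 at 1147 CPM. It followed in cluster 0, led by the neurogenic factor Neurog2 and by Sox17, at 152 CPM, and in cluster 1, led by Hand2 and other genes, at 140.3 CPM. Psat1 was highest in cluster 4, led by Hpse2 and Gdf10, at 416 CPM, where Pycr1 stood at 59.0 CPM. It followed in the cycling cluster 26 at 317 CPM, with Pycr1 at 73.9 CPM. In cluster 1, where Pycr1 was at 140.3 CPM, Psat1 stood at 21.9 CPM and Phgdh at 5.62 CPM, so the clusters with the most Pycr1 and the most Psat1 were not the same. Clusters 4 and 26 still had Pycr1 beside their high Psat1, above the highest of 34 control clusters (14.5 CPM). Psat1 in mutant cluster 11, at 96.5 CPM, was close to the 89.5 CPM of control glia-like cells. It was under the 204 CPM of mutant glia-like cells. Cluster 6, mutant-dominated as well but with 45.6 CPM of Wif1, had 8.59 CPM of Pycr1 and 18.0 CPM of Psat1. Aldh18a1 lay between 12.3 and 24.4 CPM in these clusters, lowest in the glia-like cluster 35.

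**Figure D3:**
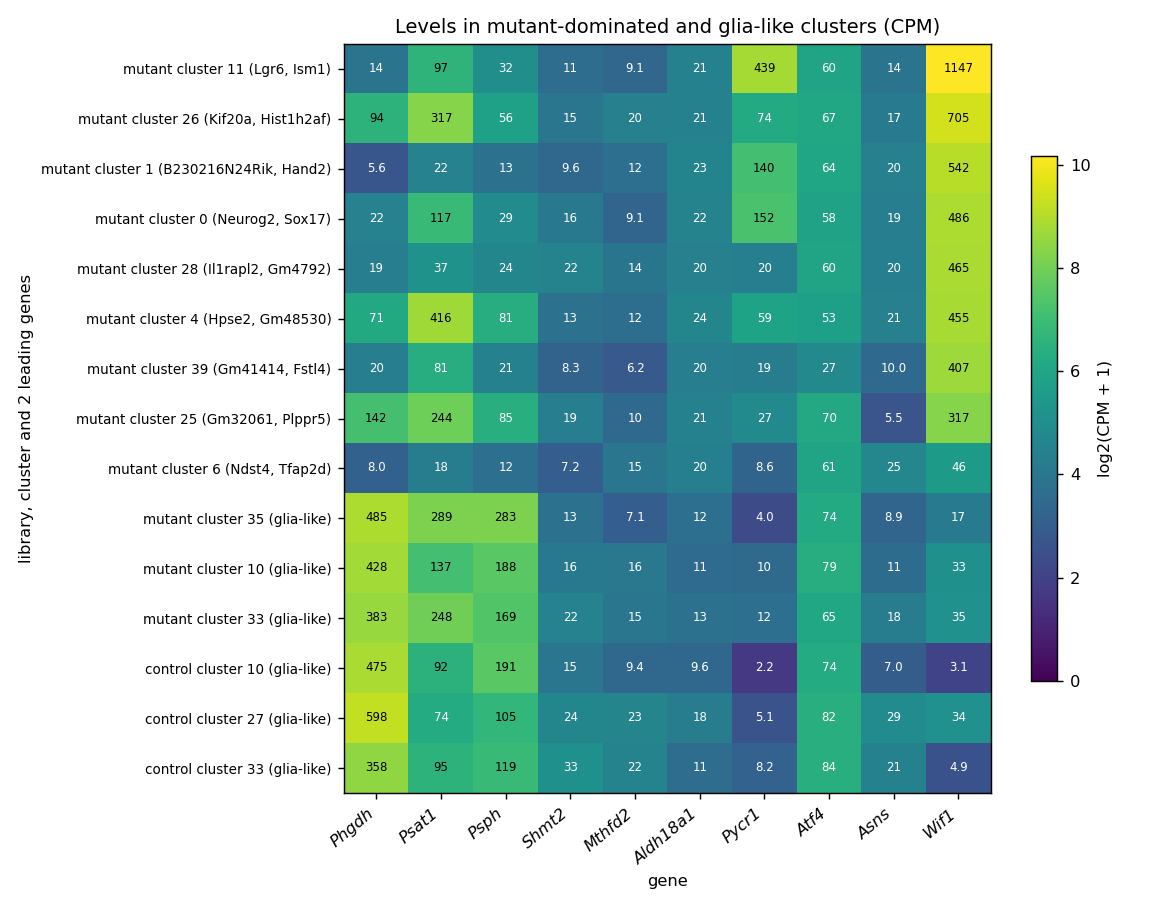
Level (CPM, printed in each cell and coloured as log2(CPM + 1)) of the 9 genes and Wif1 in the 10 mutant-dominated clusters and the glia-like clusters of each library, mutant rows first, each row labelled by its leading genes or as glia-like. Pycr1 is highest in cluster 11 (439 CPM), Psat1 in cluster 4 (416 CPM), and Phgdh and Psph in the glia-like rows of both libraries.

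Within clusters Pycr1 was mostly higher in Wif1-high cells. Like the Wif1 bins above, this split reuses the cells on which the genes were chosen, so it is no independent support. In the 10 clusters with at least 50 mutant cells on either side, the ratio of cells with at least 2 Wif1 UMIs to cells with none was above 1 in 9 for Pycr1, passed 1.5 in 7, and had a median of 2.19 (0.899 to 5.23). Cluster 7 passed 1.5 with an interval that included 1 (1.60, 0.919 to 2.70). In cluster 1 Pycr1 stood at 174 CPM in Wif1-high cells and 65.0 CPM in cells without Wif1 (ratio 2.68, 2.36 to 3.04). In cluster 11 it stood at 451 CPM in Wif1-high cells and 260.2 CPM in cells without Wif1 (1.73, 1.52 to 1.98). For Psat1 the ratio was above 1 in 3 of 10 clusters, with a median of 0.806, and in cluster 26 it was 0.425 (0.391 to 0.462). For Asns the median over the 10 clusters was 0.999 and for Atf4 0.891. Cells were not thinned here, and within a cluster deeper cells more readily reach 2 Wif1 UMIs.

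The few control cells with at least 2 Wif1 UMIs did not have the Pycr1 level of the mutant ones. Pycr1 had 5 UMIs in these 68 cells, or 5.24 CPM (1.70 to 12.2), and Phgdh stood at 338 CPM (302 to 377) and Psat1 at 75.4 CPM (59.0 to 95). Of the 68 cells, 32 belonged to glia-like cluster 27, and their Wif1 level was 200.0 CPM, against 823 CPM in the Wif1-high mutant cells.

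Among glia-like cells, Psat1 was the serine gene past 1.5-fold between the libraries, though not under every setting. It stood at 204 CPM in mutant and 89.5 CPM in control glia-like cells, a ratio of 2.28 (2.13 to 2.43), while Phgdh (0.896, 0.864 to 0.929) and Psph (1.33, 1.26 to 1.41) stayed under 1.5-fold. The Psat1 ratio was 1.45 at the coarser Leiden resolution of 0.5, and Phgdh was lower, at 0.581, when glia were gated by markers. Psat1 was the 1 gene of the 8 at 10 CPM or more that was higher, where 4.71% of 9608 genes were, and 0 were lower, where 3.54% were. Pycr1, at 8.42 CPM in mutant and 4.10 CPM in control glia-like cells, was under the 10 CPM needed for a call (ratio 2.05, 1.5 to 2.83), and its ratio ranged over 15 settings from 1.29 in glia-like cells with no Wif1 UMI to 9.30 with the marker gate. The libraries filled the class differently: cluster 35 held 325 of 872 mutant but 24 of 1498 control cells, and cluster 27 held 48 mutant and 396 control cells. In cluster 10, shared by 350 mutant and 864 control cells, Psat1 stood at 137 CPM in mutant cells, against 91.6 CPM in control cells (1.5, 1.35 to 1.66, just under the call). In cluster 33 it stood at 248 CPM in mutant cells, against 95 CPM in control cells (2.61, 2.29 to 2.99). In cluster 10, Mthfd2 (1.67, 1.20 to 2.29) and Asns (1.57, 1.06 to 2.29) were also past 1.5-fold. Cluster 35 had 289 CPM of Psat1 in its mutant cells.

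Whole libraries reflected both the cells present and their levels, which a sum cannot separate. Across all cells Pycr1 stood at 72.7 CPM in the mutant library, against 8.43 CPM in the control library (ratio 8.63, 8.17 to 9.11), and Psat1 at 112 CPM in the mutant library, against 44.7 CPM in the control library (2.50, 2.44 to 2.57). These 2 of 9 genes were higher, where 8.64% of 9785 genes were. Phgdh (0.580, 0.567 to 0.592) and Mthfd2 (0.606, 0.577 to 0.637) were lower, where 6.25% were.

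In the control library alone, Phgdh (5.53-fold), Psph (5.79-fold) and Psat1 (2.26-fold) were higher in glia-like than in other cells, where 21.0% of 10008 genes were, and Mthfd2 (0.592), Aldh18a1 (0.637) and Asns (0.546) were lower, where 16.5% were. The other cells include the unnamed clusters 17 and 22, in which astroglial progenitor markers were enriched. Among mutant clusters, Asns and Atf4 were highest in cluster 8, led by Gsc and including Eomes, a transcription factor of glutamatergic lineages, with 50.4 CPM of Asns in mutant cells, against 48.9 CPM in control cells, and 166 CPM of Atf4 in mutant cells, against 156 CPM in control cells. Among control clusters Atf4 was highest there too, and Asns in cluster 12 at 49.3 CPM. Mthfd2 was highest in cluster 9 in both libraries, which included cell cycle genes among its leading genes, at 51.2 CPM in mutant cells, against 49.0 CPM in control cells.

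In Wif1-high mutant cells, cycling cells had more Phgdh, Psat1 and Mthfd2 and less Pycr1 than the others. Counted as cycling by at least 1 thinned UMI of the proliferation genes Mki67 and Top2a were 15.8% of Wif1-high mutant and 20.9% of control glia-like cells. In Wif1-high mutant cells Phgdh stood at 63.1 CPM in cycling and 29.2 CPM in other cells (ratio 2.16, 1.97 to 2.36), Mthfd2 at 19.6 and 9.73 CPM in that order (2.02, 1.72 to 2.37), and Psat1 at 189 and 119.99 CPM (1.58, 1.5 to 1.66). Pycr1 stood at 85.4 CPM in cycling and 178 CPM in other Wif1-high cells (0.481, 0.450 to 0.513). Psph (1.18, 1.06 to 1.32) and Shmt2 (1.19, 1.001 to 1.41) were slightly higher in cycling Wif1-high cells. In control glia-like cells Mthfd2 was likewise higher in cycling cells (1.87, 1.44 to 2.42), as was Psat1 (1.3, 1.17 to 1.46), whereas Phgdh was not (1.02, 0.970 to 1.07) and Psph was lower (0.875, 0.797 to 0.960). Among non-cycling cells alone the Pycr1 ratio of Wif1-high mutant to control glia-like cells was 46.1 (35.2 to 61.6). Cycling and cluster were not separated. The cycling cluster 26 held 360 Wif1-high cells, with 250 CPM of Psat1, 68.5 of Phgdh and 86.9 of Pycr1. Wif1-high cells of cluster 11 had 451 CPM of Pycr1 and 14.2 of Phgdh. The part of the cluster mix in the cycling ratios of Wif1-high cells was not tested.

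**Figure D4:**
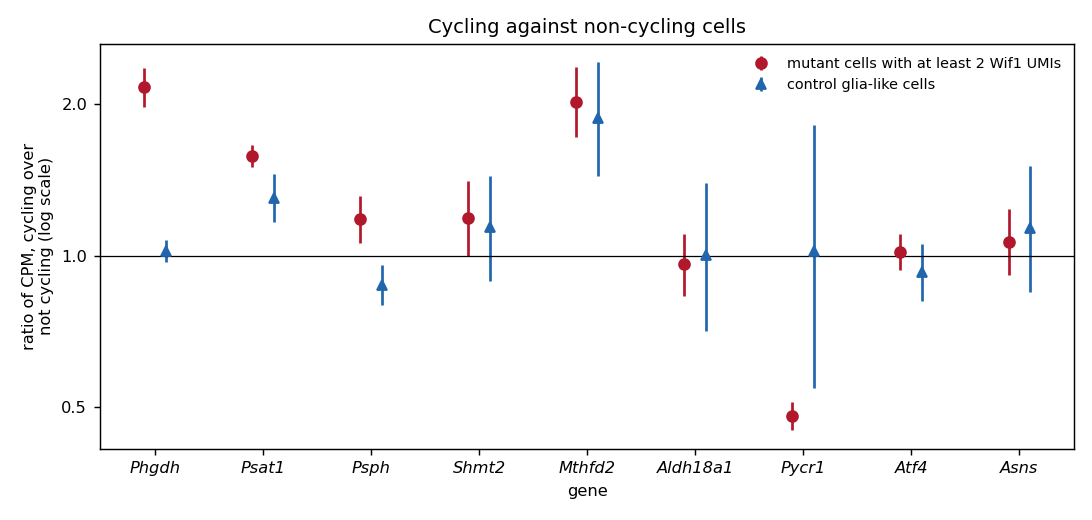
Ratio of the level in cycling to that in other cells (log axis, exact 95% intervals) for the 9 genes, in Wif1-high mutant cells and in control glia-like cells. In Wif1-high mutant cells Phgdh (2.16), Mthfd2 (2.02) and Psat1 (1.58) lie above 1, Shmt2 (1.19) and Psph (1.18) slightly above it and Pycr1 (0.481) below it. In control glia-like cells Mthfd2 (1.87) and Psat1 (1.3) lie above 1 and Psph (0.875) below it.

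Most other genes of serine, glycine and one-carbon metabolism that were called were lower in Wif1-high mutant than in control glia-like cells. Of 12 serine and glycine one-carbon genes at 10 CPM or more, 0 were higher and 7 lower than in control glia-like cells (median log2 ratio −0.71). They were led by Aldh1l1, the folate dehydrogenase that marks astrocytes, at 12.7 CPM in Wif1-high mutant and 224 CPM in control glia-like cells, and Amt of the glycine cleavage system (4.58 and 24.8 CPM), followed by Mthfd1 (12.2 and 36.3 CPM). Of 11 genes of serine use and transport 2 were higher, the neutral amino acid transporters Slc1a5 (15.7 CPM in Wif1-high mutant and 4.10 CPM in control glia-like cells) and Slc38a2 (109 and 52.0 CPM). The 4 lower ones were led by Slc7a10 (5.56 and 146 CPM) and Cbs (3.25 and 46.7 CPM), followed by Slc1a4 (19.9 and 79.6 CPM).

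Of 7 proline genes 3 were higher, Pycr1, Aldh18a1 and, just at the limit, Aldh4a1 of proline breakdown (16.7 CPM in Wif1-high mutant and 11.1 CPM in control glia-like cells, ratio 1.5). The 3 lower ones were Oat, which links ornithine to proline (45.7 and 177 CPM), Prodh, the proline oxidase (5.09 and 11.4 CPM), and Pycrl (28.8 and 43.6 CPM). Of 7 genes for collagen, a proline-rich product, and its hydroxylases, 0 were higher and 1 lower.

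Relatives and targets of Atf4 were more often lower than higher in Wif1-high mutant cells. Of 8 genes of the Atf4 family and its feedback 1 was higher, Ddit4 (112 CPM in Wif1-high mutant and 47.3 CPM in control glia-like cells), and 3 were lower, Cebpb (5.90 and 28.5 CPM), Atf5 (13.5 and 25.4 CPM) and Atf3 (8.0 and 12.2 CPM). Of 6 amino acid transporters under Atf4 1 was higher, Slc38a1 (141 and 58.8 CPM), and 4 were lower, led by Slc6a9 (3.14 and 64.8 CPM), Slc7a5 (8.6 and 35.9 CPM) and Slc7a11 (12.8 and 33.9 CPM). Of 7 other targets 1 was higher (Nmnat2) and 4 lower (Jdp2, Gpt2, Eif4ebp1 and Cth), and of 8 asparagine and glutamine enzymes 4 were lower, led by Asrgl1 (22.7 and 284 CPM), Glud1 (132 and 833 CPM) and Gpt2 (12.6 and 56.0 CPM).

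Of 19 aminoacyl-tRNA synthetases, a usual part of the response, 1 was higher (Iars) and 1 lower (Dars), with a median log2 ratio of 0.09. Of 15 endoplasmic reticulum chaperones 0 were higher and 11 lower (median −0.88), of 13 glycolysis genes 0 were higher and 10 lower (median −0.77), and of 13 dissociation and immediate early genes 0 were higher and 9 lower (median −1.23). Of 11 eIF2alpha kinase and eIF2B genes 1 was higher (Eif2b3) and 1 lower (Eif2ak2). All 9 Wnt targets at 10 CPM or more were higher, with a median log2 ratio of 4.54. Wif1 is among them and was higher by definition, because it sets the Wif1-high cells apart. Of 14 cell cycle genes 0 were higher and 3 lower, and of 2 Myc family genes 1, Mycl, was higher. The background shares for these counts are the 22.8% and 19.8% given above. Control glia-like cells also differed from other control cells, where 21.0% of all genes were higher and 16.5% lower. In them 10 of 15 chaperones, 7 of 13 glycolysis genes and 4 of 7 other Atf4 targets were higher and 0 lower. Of 13 one-carbon genes 6 were higher and 2 lower, and of 9 Atf4 family genes 0 were higher and 2 lower. Of 6 amino acid transporters under Atf4 2 were higher (Slc6a9 and Slc7a11) and 2 lower. Of 8 asparagine and glutamine enzymes 4 were higher (Asrgl1, Glud1, Glul and Gpt2) and 2 lower.

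**Figure D5:**
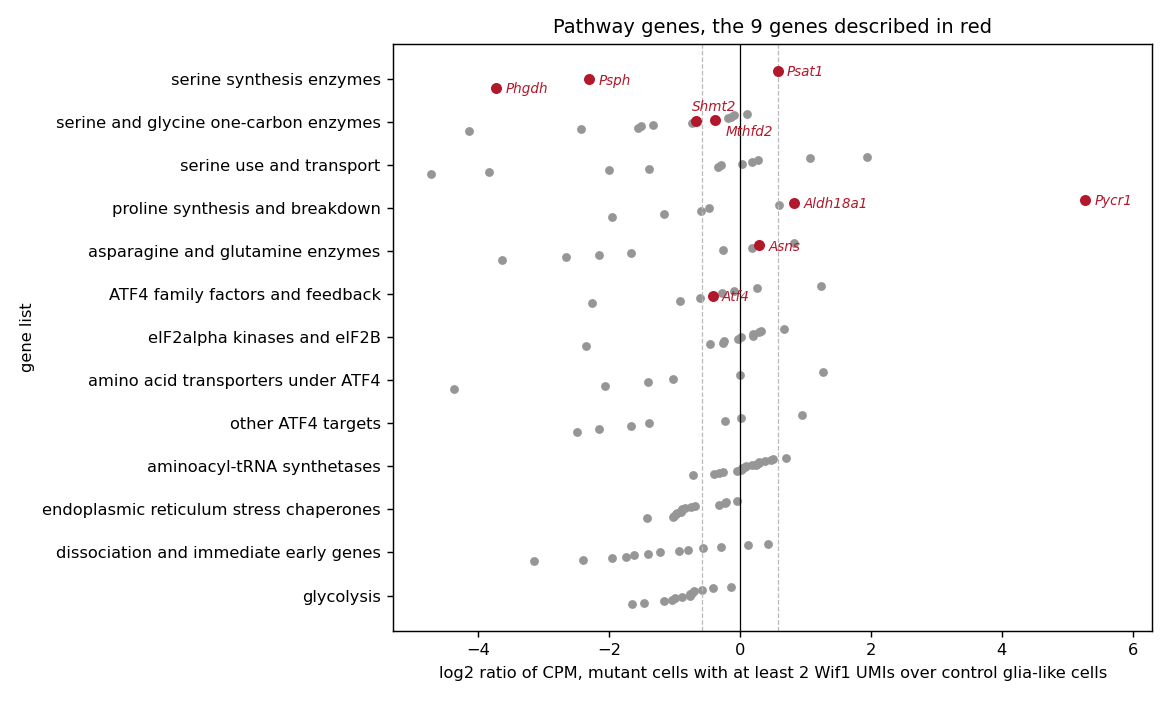
Log2 ratio of CPM in Wif1-high mutant over control glia-like cells for the genes of 13 pathway lists (1 point a gene at 10 CPM or more, the 9 genes described in red; dashed lines at 1.5-fold). Pycr1 lies far to the right at 38.7-fold, Phgdh and Psph to the left, and the aminoacyl-tRNA synthetases around 0.

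Against mutant cells without Wif1, where fewer of all genes were called (7.92% higher and 10.3% lower), some of these lists gave few calls and others more. There 0 of 15 chaperones, 0 of 19 synthetases, and 0 of 12 one-carbon genes were higher, and 0, 0 and 1 were lower. Of 9 Atf4 family genes 1 was higher and 3 lower, and of 5 amino acid transporters under Atf4 1 was higher and 2 lower. Of 13 glycolysis genes 0 were higher and 4 lower. Of 6 proline genes 2 were higher and 0 lower, of 12 dissociation and immediate early genes 0 were higher and 8 lower, and of 8 collagen genes 0 were higher and 6 lower (median log2 ratio −2.45). With the collagen genes moved the markers of 2 collagen-rich cell types: 6 meningeal fibroblast markers summed to 49.9 CPM in Wif1-high cells and 306 CPM in cells without Wif1, and 6 pericyte or mural markers to 35.7 and 224 CPM in that order. Their part in the result was not tested. Between mutant and control glia-like cells, of 8 Atf4 family genes, 19 synthetases, 15 chaperones and 6 proline genes 0 were higher and 0 lower, where 4.71% and 3.54% of all genes were. Of 6 amino acid transporters under Atf4 2 were lower (Slc7a5 and Slc6a9), of 13 dissociation and immediate early genes 4 were lower, of 6 collagen genes 3 were lower, and of 8 Wnt targets 6 were higher. Wif1, among these 6, stood at 35.7 CPM in mutant and 10.1 CPM in control glia-like cells. Non-neural mutant cells lay on both sides of the mutant value, with 10.2 CPM in erythroid-like and 65.8 CPM in pericyte- or mural-like cells. Whether the Wnt targets in mutant glia-like cells exceed such a background was not tested.

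Across 63 populations (clusters within a library with at least 100 cells), the genes most like Pycr1 in level were Cygb (Pearson r 0.82 of log2(CPM + 1)), Nkd1 (0.81) and Dkk1 (0.78), the last 2 being Wnt inhibitors. Those most like Psat1 were Sox2 (0.87), Rfx4 (0.83) and Hes5 (0.82), progenitor genes, and Phgdh and Psph shared Dbi as the nearest gene (0.89 and 0.91). Phgdh was followed by Acot1 (0.88) and Metrn (0.88), and Psph by Fabp7 (0.89) and Asrgl1 (0.89). Mthfd2 was most like Lmnb1, Nup43 and Srsf7 (0.84 to 0.83), Shmt2 most like Cnbp, Emg1 and Rpa3 (0.89 to 0.86), Aldh18a1 most like Hnrnph3, Zfp2 and Tia1 (0.92 to 0.90), Atf4 most like Ehd1, Actg1 and Nkiras2 (0.88), and Asns most like Eef1e1, Dynlt1a and Tubb5 (0.82 to 0.80). Among the 9 genes, Phgdh and Psph had r 0.81, Psat1 and Psph 0.79, Phgdh and Psat1 0.74, Mthfd2 and Asns 0.73, Pycr1 and Aldh18a1 0.52, Pycr1 and Psat1 0.34, and Pycr1 and Phgdh −0.21. The populations share 2 libraries, and these values are descriptions with no p-value.

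Cells outside the neural lineages also held some Pycr1 and Psat1, in most of these classes more in the mutant library. Meningeal fibroblast-like cells were the exception, with 16.8 CPM of Pycr1 in mutant and 14.5 CPM in control cells and 10.4 CPM of Psat1 in mutant and 12 CPM in control cells. Pycr1 stood at 3.01 CPM in mutant and 0.220 CPM in control erythroid-like cells and at 13.7 CPM in mutant and 1.83 CPM in control endothelial-like cells, and Wif1 at 10.2 CPM in mutant and 0.441 CPM in control erythroid-like cells. Psat1 stood at 58.0 CPM in mutant and 6.42 CPM in control pericyte- or mural-like cells (112 UMIs in 340 cells and 11 UMIs in 321 cells), against 8.01 CPM in mutant and 2.20 CPM in control erythroid-like cells. In those mutant pericyte- or mural-like cells 34 held a Psat1 UMI, and 10 of them held 85 of the 112 UMIs. Wif1 stood at 65.8 CPM and Fstl4, a leading gene of mutant cluster 1, at 70.5 CPM in the same mutant cells, against 0.583 CPM of each in the control ones. The part of mixed droplets or free RNA in this was not tested.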

How the data were processed

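The authors deposited raw UMI counts as whole numbers for 1 mutant and 1 control library of whole E16.5 cerebella, made with Cell Ranger 7.0.1 on mm10, per the submitters' processing notes; how introns, annotation and cell calling were treated was not given in the sources used here. Per the labels, 40000 cells of each pool entered a 3′ v3.1 kit. Cells with at least 1000 UMIs, 500 genes and at most 10% mitochondrial UMIs were kept (16482 mutant, 16812 control), and Scrublet at an expected rate of 16% removed 618 mutant and 843 control doublets. Cells were clustered in scanpy 1.11.5 (2000 variable genes, 30 components, 15 neighbours, leidenalg 0.10.2 at resolution 1) without the 9 genes, the pathway lists, and haemoglobin, mitochondrial, sex-linked and ribosomal genes; the libraries were not integrated.

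Of 45 clusters, 19 received names, by the markers of 20 cell types: at least 3 markers, and 50% of a type's, had to be enriched. The rule for lead genes (a marker among the top 50 genes, clusters led by 2 cilia genes or a midbrain marker unnamed) was set after the clusters were seen. Counts were summed per population and given as UMIs per 1000000 (CPM), with exact Poisson, binomial (Clopper-Pearson) and conditional binomial 95% intervals, which cover counting error only. A gene was compared at 10 CPM or more in either population and called at 1.5-fold in size; the calculation was tested on simulated data. With 1 library a genotype there was no test. Gene positions come from GENCODE M21 (GRCm38), in which 32158 of 32285 identifiers were found. The 9 genes and all lists were chosen with earlier results of these data known. From each list the 3 genes with the largest ratio each way past 1.5-fold in Wif1-high mutant over control glia-like cells could be named with values, and for each of the 9 genes the 3 most alike in level. Clusters, Fstl4 and the pericyte- or mural-like cells were singled out after their values were seen. Results for some genes are not reported here. Alternatives changed the filter, doublets, totals, scaling, depth, cycling cells, thresholds and the definition of glia.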

Additional observations from a re-analysis of the deposited data

How the results depend on the processing

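No paired analysis was possible because each genotype has 1 library with no replicate number. No ratio past 1.5-fold in the main setting changed direction under any alternative. Ratios under 1.5-fold could: Mthfd2 in mutant over control glia-like cells ranged from 0.659 to 1.67 over 15 settings. Asns in Wif1-high mutant over control glia-like cells, given below, changed direction too. Of the counts of the 9 genes called, Wif1-high mutant over control glia-like cells gave 2 higher and 3 lower; 1 was higher at 2-fold, 4 with a marker gate for glia, alone or on all barcodes, and 5 were lower against cluster 27 alone, an alternative added after seeing the data, as were the other single clusters. Over mutant cells without Wif1, 1 was lower at 2-fold, with at least 1 Wif1 UMI, and with the mean of per-cell CPM, while Mthfd2 joined the lower genes in 7 of 13 settings. In all mutant over all control cells 0 were lower at 2-fold; in control glia-like over other control cells 0 were lower at 2-fold and 1 with the per-cell mean. In mutant over control glia-like cells 2 were higher and 1 lower with the marker gate, alone or on all barcodes, 2 were higher with totals without mitochondrial, ribosomal and haemoglobin genes, 3 were higher in cluster 10 alone, and 2 were lower in cluster 33 alone. Psat1 in Wif1-high mutant over control glia-like cells ranged from 1.11 to 1.79 and reached 1.5 in 8 of 20 settings, and Asns ranged from 0.620 to 2.58. In mutant over control glia-like cells Psat1 ranged from 1.45 to 2.89 over 15 settings. Centring on the median gene shifts log2 ratios of Wif1-high mutant cells by 0.10 over control glia-like cells and by 0.15 over mutant cells without Wif1. Pooled embryos leave variation between animals unmeasured.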
